A study of Mus musculus with 9 samples.

Results

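The S100 calcium-binding family is described here through 8 genes, S100a1, S100a4, S100a6, S100a10, S100a11, S100a13, S100a14 and S100a16, named in a list of symbols and found among 54453 genes of the deposited table. All 8 passed the filter on low counts. They were measured by mRNA sequencing in 9 frozen primary pancreatic tumors of KPC mice, a genetically engineered model of pancreatic ductal adenocarcinoma that uses Cre recombinase. Both groups carry the KPC alleles. The 5 tumors labelled Scrib null (tumors 7, 14, 15, 18 and 23, genotype written KPF/+CSF/F) were compared with the 4 labelled Scrib WT (tumors 2, 3, 6 and 9, genotype written KPF/+C). Scrib encodes a scaffold protein of epithelial polarity. The promoter that drives Cre, the ages of the mice and the cells in which Scrib was deleted are not stated in the labels. Separate mice are not stated in the labels, and every p-value here speaks of the spread among these libraries. RNA came from whole tissue, in which fewer cells of a type and less RNA per cell cannot be told apart.

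S100 proteins are small proteins with a pair of EF-hand calcium-binding loops that work as dimers. Calcium opens a surface on the dimer that grips target proteins, among them annexins, myosins and p53, and some members are also secreted and act on cell-surface receptors such as RAGE. Most of the genes lie in clusters on one chromosome, and several are known for high expression in pancreatic ductal cancer cells, while others mark neutrophils, glia or stromal cells.

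Estimated counts summed to 19281212 to 27596832 in Scrib null tumors and to 10145830 to 26502285 in Scrib WT tumors. Tumor Scrib WT 3 stood apart, with 32.46% of its counts in its top 100 genes; that share was 18.78% to 25.77% elsewhere. Epithelial keratins, cadherin and related markers were detected in every tumor, with a summed level of 6729 to 12964 CPM (counts scaled to the same library total) in Scrib null and 8073 to 11651 CPM in Scrib WT tumors. Scrib mRNA, which checks the labels only weakly in whole tissue, averaged 60.3 ± 24.6 CPM in Scrib null and 70.5 ± 21.4 CPM in Scrib WT tumors (SD, n = 5 and 4; edgeR adjusted p = 0.712). It ran from 36.9 to 102 CPM in Scrib null and from 44.1 to 88.5 CPM in Scrib WT tumors. Scrib null 7, at 102 CPM, was above every Scrib WT tumor, so Scrib mRNA did not separate the groups as labelled. Directions below are therefore between tumors as labelled.

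No member of the family differed between the groups after adjustment over all 16169 genes tested (quasi-likelihood test in edgeR with a Benjamini-Hochberg threshold of 0.05), where 0.0124% of genes did. At an unadjusted p under 0.05 edgeR listed 2 members as lower in Scrib null tumors, S100a13 and S100a1, and 0 as higher, against 10% of all genes lower and 7.64% higher. Among the members, 7 had a negative log2 fold change, Scrib null over Scrib WT, as did 52.2% of all genes. The median log2 fold change of the 8 members was -0.64, against -0.035 over all genes tested. Of the members, 6 have a longest transcript under 1 kb. Among 617 tested protein-coding genes under 1 kb the median was -0.65, and 27.1% were lower at that unadjusted p. Groups did not overlap for 1 member, S100a13, which was lower in Scrib null, as 3.49% of genes were. In either direction 6.91% of genes did not overlap. S100a13 has a longest transcript of 715 bases, and 6.65% of protein-coding genes under 1 kb were lower without overlap. DESeq2 called 0 members, with adjusted p = 0.0521 for S100a13, and called 2.24% of its genes lower and 1.15% higher. Limma-voom called 0 members, with 0.00618% of genes lower and 0.00618% higher. The members' median moved to -0.21 without tumor Scrib WT 3, in which 6 of the 8 members had their highest level.

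**Figure D1:**
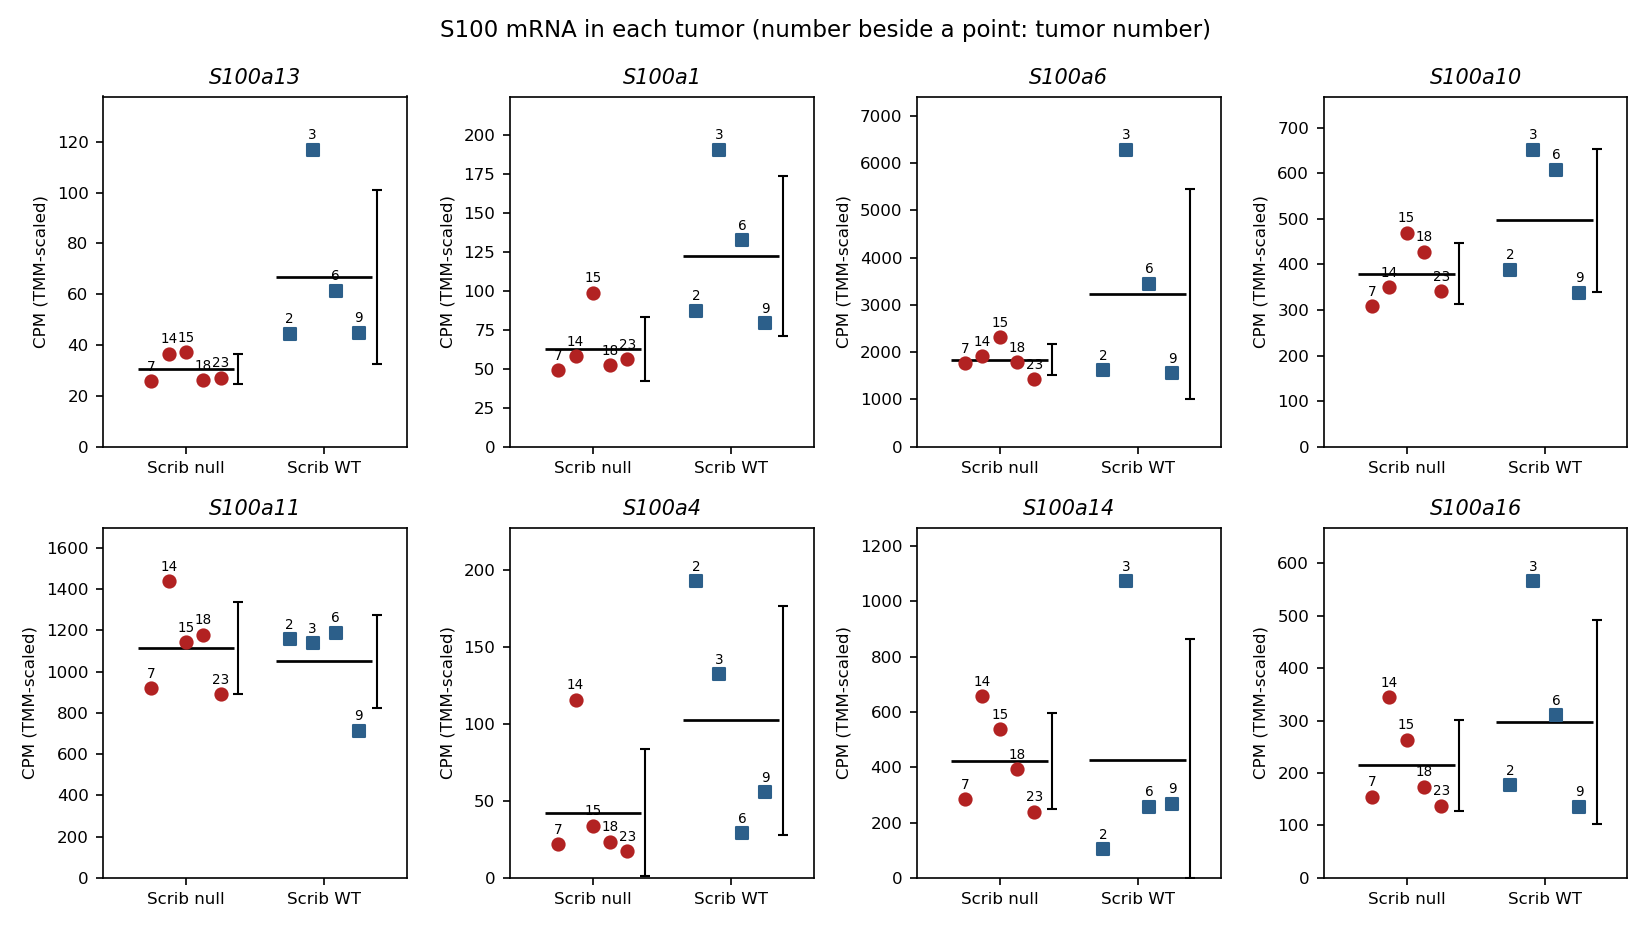
Level of each S100 member in each tumor, in CPM scaled by TMM (vertical axes, each starting at 0), with Scrib null tumors as circles and Scrib WT tumors as squares, tumor numbers beside the points, group means as lines and SD as bars (cut at 0 for S100a14). S100a13 is the member with no overlap, with all 5 Scrib null tumors at or below 37.1 CPM and all 4 Scrib WT tumors at or above 44.5 CPM, and tumor Scrib WT 3 is highest for 6 members.

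**Figure D2:**
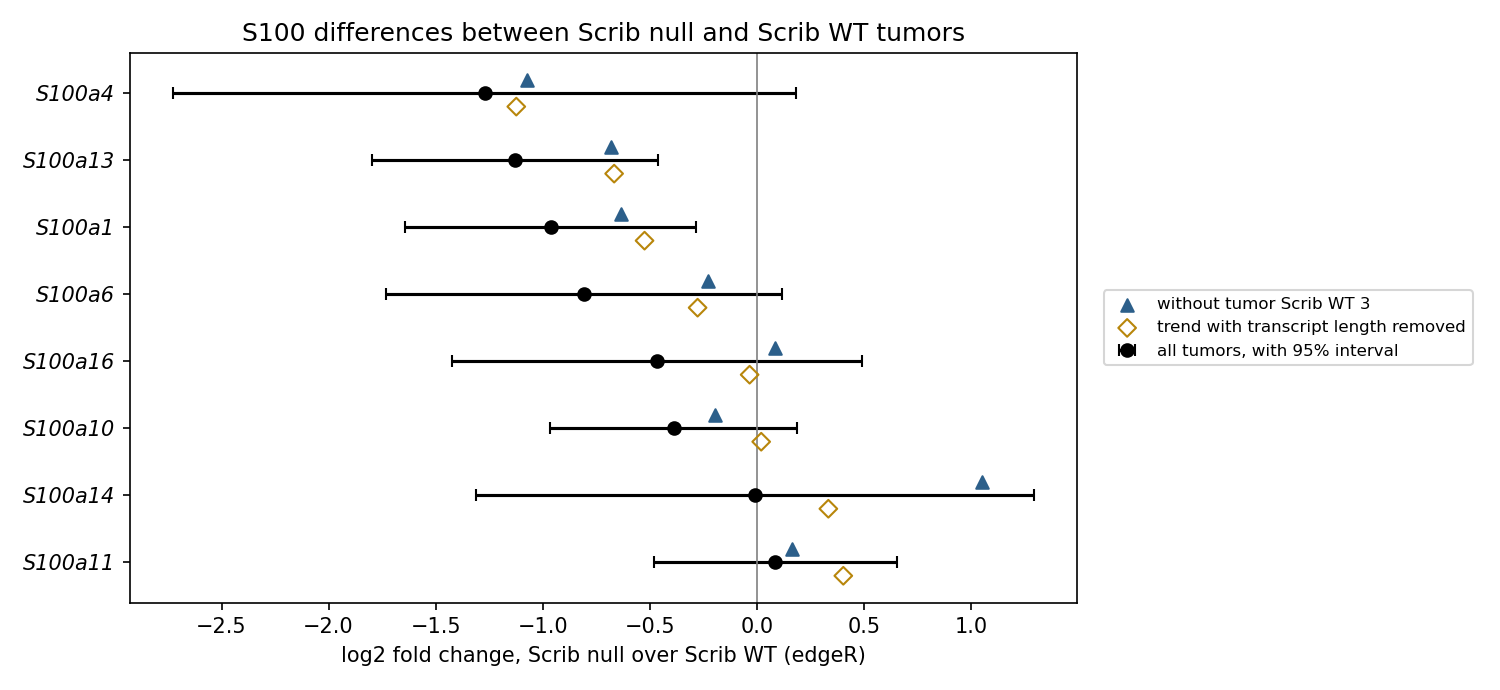
Log2 fold change of each member, Scrib null over Scrib WT, from edgeR (horizontal axis), with 95% intervals from all tumors as circles and bars, the value without tumor Scrib WT 3 as triangles and the value with the trend on transcript length removed as diamonds. The intervals of S100a13 and S100a1 lie below 0, and the 6 others include it.

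S100a13 and S100a1 lie head to head on mouse chromosome 3, as annotated in GENCODE M21 on GRCm38. S100a13, whose protein carries FGF1 and interleukin 1 alpha out of the cell by a non-classical route, spans 90514435 to 90524581 on the plus strand. S100a1, best known in heart and skeletal muscle where it binds calcium-release and calcium-pump proteins, spans 90511034 to 90514392 on the minus strand. The annotated spans are 42 bp apart. RefSeq places the start sites 104 bases apart on GRCm38.p6, at 90514435 for S100a13 and 90514330 for S100a1, so that their promoter windows (250 bases before to 50 after a start) overlap by 204 bp. The window of S100a13, chr3:90514185-90514484 on the plus strand, is shown because it holds the stretch between both start sites, which is in capitals and is 58.7% G and C.
S100a13: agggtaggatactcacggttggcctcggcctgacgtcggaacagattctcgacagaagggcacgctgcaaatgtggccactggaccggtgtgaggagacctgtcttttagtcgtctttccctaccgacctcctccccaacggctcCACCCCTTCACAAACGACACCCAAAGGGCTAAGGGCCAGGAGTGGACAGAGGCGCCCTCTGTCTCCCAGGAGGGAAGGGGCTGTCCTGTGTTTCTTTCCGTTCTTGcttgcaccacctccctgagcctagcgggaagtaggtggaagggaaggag
Neither TGANTCA, a pattern bound by AP-1, nor TATAAA was found on either strand of the windows of these genes.

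S100a13 had 25.8, 36.6, 37.1, 26.2 and 27.2 CPM in Scrib null tumors 7, 14, 15, 18 and 23, against 44.5, 117, 61.4 and 44.9 CPM in Scrib WT tumors 2, 3, 6 and 9. Every Scrib null tumor lay below every Scrib WT tumor, and the spread among Scrib WT tumors was wide, with tumor 3 far above the other three. Means were 30.6 ± 5.75 CPM in Scrib null and 66.9 ± 34.2 CPM in Scrib WT tumors (SD, n = 5 and 4). The log2 fold change was -1.13 (SE 0.30, edgeR adjusted p = 0.201), with a 95% interval of 0.287-fold to 0.726-fold. An exact two-sided permutation test on log2 CPM gave p = 0.00794, the smallest that 5 tumors against 4 allow. Without tumor Scrib WT 3 the log2 fold change was -0.68. Tumor identifiers begin with 19, 20 or 22 in the labels. Among those with 19, S100a13 averaged 33.1 CPM in 3 Scrib null tumors and was 44.5 CPM in 1 Scrib WT tumor, and among those with 20 it averaged 26.7 CPM in 2 Scrib null and 89.1 CPM in 2 Scrib WT tumors.

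S100a1 had 48.9, 57.8, 98.6, 52.2 and 55.9 CPM in Scrib null tumors 7, 14, 15, 18 and 23, against 87.1, 190, 133 and 79.1 CPM in Scrib WT tumors 2, 3, 6 and 9. Here the groups overlapped, since Scrib null tumor 15 lay above Scrib WT tumors 2 and 9. Means were 62.7 ± 20.4 CPM in Scrib null and 122 ± 51.0 CPM in Scrib WT tumors (SD, n = 5 and 4), a log2 fold change of -0.96 (SE 0.31, edgeR p = 0.0101, adjusted p = 0.221; exact two-sided permutation p = 0.0317). Without tumor Scrib WT 3 it was -0.63 (exact permutation p = 0.0893 on log2 CPM). Skeletal muscle is a tissue rich in S100a1. Its 4 listed markers summed to 0.368 to 1.19 CPM in Scrib null and 1.23 to 12.3 CPM in Scrib WT tumors. The sum was highest in tumor Scrib WT 3, at 12.3 CPM, of which Acta1 alone gave 11.9 CPM. Only 1 of the 4, Acta1, passed the filter on low counts, and Ckm and Ttn were at 0 in at least 1 tumor. The part of these markers in the S100a1 difference was not tested.

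The ratio between both genes varied less over tumors than either gene did. S100a1 over S100a13, in CPM, was 1.90, 1.58, 2.66, 2.00 and 2.06 in Scrib null tumors 7, 14, 15, 18 and 23, against 1.96, 1.63, 2.16 and 1.76 in Scrib WT tumors 2, 3, 6 and 9. The log2 ratio averaged 1.01 ± 0.27 in Scrib null and 0.90 ± 0.18 in Scrib WT tumors, a difference of 0.11 that lay within the spread (exact two-sided permutation p = 0.563). Over the 9 tumors their log2 CPM correlated with Pearson r = 0.946 (exact permutation p = 0.000306, adjusted over 28 member pairs p = 0.00857) and Spearman rho = 0.933 (permutation p = 0.00075, adjusted p = 0.021). Without the tumors farthest from the median, Scrib WT 3 and Scrib WT 6, r was 0.819. As deviations from the group means r was 0.882, within Scrib null tumors it was 0.751 (n = 5) and within Scrib WT tumors 0.965 (n = 4). An r as high as 0.946 over the 9 tumors was not particular to this pair. Among 12241 candidate genes, the 3 most like S100a13 had r of 0.979 to 0.988, and S100a1 was not among them. The 3 most like S100a1 had r of 0.978 to 0.988, and S100a13 was not among them. The neighbouring gene on the other side of S100a1, Chtop, 1536 bp away and a factor of mRNA export, showed no such gap between groups, with 104 ± 16.8 CPM in Scrib null and 103 ± 12.2 CPM in Scrib WT tumors and a log2 fold change of 0.017 (SE 0.19).

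**Figure D3:**
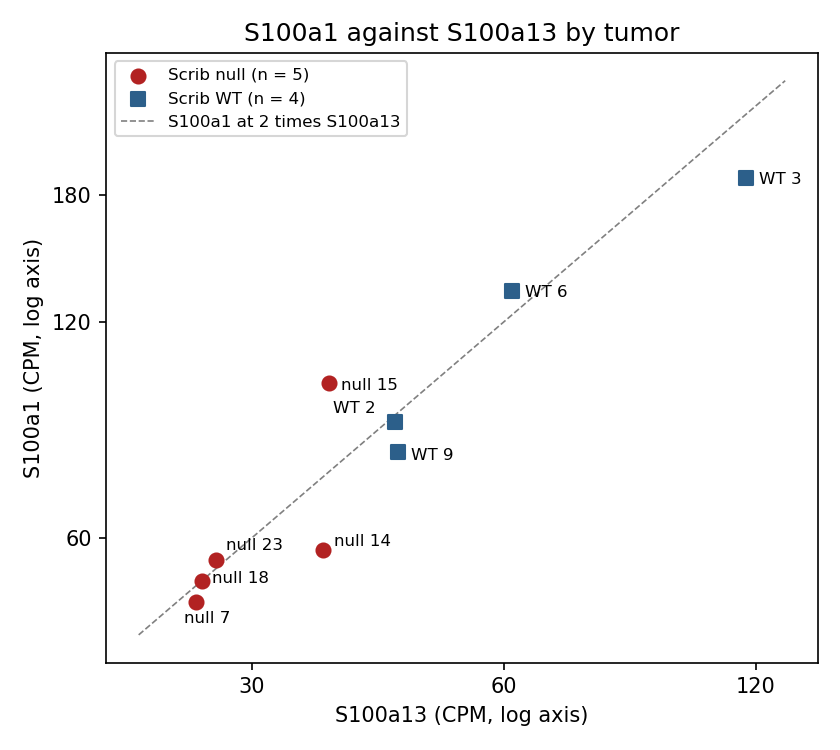
S100a1 (vertical axis) against S100a13 (horizontal axis) in CPM on log axes, with Scrib null tumors as circles, Scrib WT tumors as squares and a dashed line where S100a1 is at 2 times S100a13. The tumors lie along the line from Scrib null 7 at 25.8 and 48.9 CPM to Scrib WT 3 at 117 and 190 CPM, and Scrib null 15 lies above it.

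S100a10, S100a11 and S100a6 are members that bind annexins. S100a10 has lost calcium binding and forms a tetramer with annexin A2 that docks plasminogen and its activators at the cell surface. It had 308, 350, 469, 428 and 342 CPM in Scrib null tumors 7, 14, 15, 18 and 23, against 389, 651, 608 and 338 CPM in Scrib WT tumors 2, 3, 6 and 9. Groups overlapped, and Scrib WT tumors 3 and 6 were the highest. The log2 fold change was -0.39 (SE 0.26, edgeR adjusted p = 0.433). Its partner Anxa2 averaged 1812 ± 418 CPM in Scrib null and 2330 ± 482 CPM in Scrib WT tumors (SD, n = 5 and 4; log2 fold change -0.36, edgeR adjusted p = 0.486). The log2 ratio of S100a10 to Anxa2 in CPM averaged -2.24 ± 0.40 in Scrib null and -2.26 ± 0.23 in Scrib WT tumors (exact two-sided permutation p = 0.929).

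S100a11 encodes a partner of annexin A1. It had 920, 1438, 1144, 1178 and 889 CPM in Scrib null tumors 7, 14, 15, 18 and 23, against 1157, 1138, 1187 and 713 CPM in Scrib WT tumors 2, 3, 6 and 9. It was the steadiest member, with 2.02 times between its highest and lowest tumor, and its level in tumor Scrib WT 3 lay within the range of the others. The log2 fold change was 0.086, with a 95% interval of 0.716-fold to 1.57-fold (edgeR adjusted p = 0.877). Anxa1 averaged 892 ± 258 CPM in Scrib null and 697 ± 109 CPM in Scrib WT tumors (log2 fold change 0.36, edgeR adjusted p = 0.504).

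S100a6, or calcyclin, binds annexin A2 and the ubiquitin-ligase adaptors Cacybp and Sugt1. It had 1763, 1913, 2320, 1790 and 1432 CPM in Scrib null tumors 7, 14, 15, 18 and 23, against 1615, 6279, 3450 and 1553 CPM in Scrib WT tumors 2, 3, 6 and 9. Scrib null tumors were close together, while Scrib WT tumors 2 and 9 lay inside their range and tumors 3 and 6 far above it. The log2 fold change was -0.81 (SE 0.42, edgeR adjusted p = 0.329), and without tumor Scrib WT 3 it was -0.23. The 8 members together took 0.338% to 0.519% of estimated counts in Scrib null and 0.330% to 0.846% in Scrib WT tumors, and S100a6 made up 61.9% of that sum in tumor Scrib WT 3.

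S100a4, also called metastasin, binds the tail of non-muscle myosin heavy chain Myh9 and liprin beta (Ppfibp1), and is expressed by fibroblasts and macrophages as well as by motile tumor cells. It had 21.9, 116, 33.8, 23.4 and 17.4 CPM in Scrib null tumors 7, 14, 15, 18 and 23, against 193, 133, 28.9 and 55.9 CPM in Scrib WT tumors 2, 3, 6 and 9. One Scrib null tumor, 14, lay far above the 4 others, and Scrib WT tumors 6 and 9 lay inside the Scrib null range. Its 11.1 times between the highest and lowest tumor was the widest range of the 8 members. The log2 fold change was -1.27 (SE 0.66, edgeR p = 0.0807, adjusted p = 0.329; exact two-sided permutation p = 0.143). Without Scrib null 14 it was -2.09 (edgeR adjusted p = 0.297), and without Scrib WT 2 it was -0.76. A protein-coding gene model, Gm42674, overlaps S100a4 on the same strand with 302 exonic bases and was at 0 to 0.521 CPM, and how reads were split between them is uncertain.

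Among macrophage markers 6 of 6 had a negative log2 fold change, against 52.2% of all genes, and 5 were lower at an unadjusted p under 0.05, against 10% of all genes. None passed adjustment, and the groups overlapped for each of the 6. They had a summed level of 302 to 676 CPM in Scrib null and 562 to 1368 CPM in Scrib WT tumors. The fibroblast markers were negative in 7 of 7, 1 at that unadjusted p and 0 after adjustment, with a sum of 350 to 4449 CPM in Scrib null and 2060 to 9083 CPM in Scrib WT tumors. Tumor Scrib WT 2 had the highest sum of both lists and the highest S100a4. With both lists as a covariate the S100a4 log2 fold change was -0.92. The sum of fibroblast markers was lowest in Scrib null 7, at 350 CPM, where S100a4 was 21.9 CPM, and tumor Scrib WT 9 had 7756 CPM of them with 55.9 CPM of S100a4. Their part in the S100a4 difference was not tested further.

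The promoters of S100a4 and S100a11 are shown because these genes have the widest and the narrowest range over tumors. Both windows are from RefSeq on GRCm38.p6, plus strand, with the motif in capitals: TATAAA in S100a4 at chr3:90603520-90603819, 31 bases upstream of the start, and TGAGTCA in S100a11 at chr3:93520246-93520545, 136 and 38 bases upstream.
S100a4: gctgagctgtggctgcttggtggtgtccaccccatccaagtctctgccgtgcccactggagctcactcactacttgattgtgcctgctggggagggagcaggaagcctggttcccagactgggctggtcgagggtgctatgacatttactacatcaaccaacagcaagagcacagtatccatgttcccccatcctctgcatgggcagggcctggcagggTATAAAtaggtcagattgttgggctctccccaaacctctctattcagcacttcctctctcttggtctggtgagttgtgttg
S100a11: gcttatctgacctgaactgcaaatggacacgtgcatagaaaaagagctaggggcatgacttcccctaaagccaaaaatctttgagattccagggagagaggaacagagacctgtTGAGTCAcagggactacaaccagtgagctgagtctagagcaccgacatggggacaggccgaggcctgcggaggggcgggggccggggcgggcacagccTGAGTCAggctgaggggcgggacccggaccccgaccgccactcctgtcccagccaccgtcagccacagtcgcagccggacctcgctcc
RefSeq entries matched 6 of the 8 members, with 7 windows in all. TGANTCA was also found in the second window of S100a16, as TGAATCA 192 bases upstream of that start. On both strands, 7.81% of 32851 windows of the same length held TGANTCA and 13.6% held TATAAA. A match describes the letters only.

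S100a14 and S100a16 are neighbours, 8416 bp apart, and their proteins bind each other. S100a14 is mostly epithelial and S100a16 is widely expressed. S100a14 had 285, 658, 537, 392 and 239 CPM in Scrib null tumors 7, 14, 15, 18 and 23, against 103, 1073, 258 and 268 CPM in Scrib WT tumors 2, 3, 6 and 9. The highest and the lowest tumor, 10.4 times apart, were both Scrib WT. The log2 fold change was -0.011, with a 95% interval of 0.402-fold to 2.45-fold (SE 0.59, edgeR adjusted p = 0.994), while the difference of mean log2 CPM was 0.41 (exact two-sided permutation p = 0.579). Scrib WT 3, the highest tumor, and Scrib WT 2, the lowest, both moved these values. Without Scrib WT 3 the log2 fold change was 1.05, past an unadjusted p of 0.05 but not after adjustment (edgeR adjusted p = 0.376). Without Scrib WT 2 it was -0.33, and the difference of mean log2 CPM was -0.094.

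S100a16 had 155, 344, 264, 174 and 138 CPM in Scrib null tumors 7, 14, 15, 18 and 23, against 176, 566, 310 and 135 CPM in Scrib WT tumors 2, 3, 6 and 9. Groups overlapped throughout, and the log2 fold change was -0.47 (SE 0.43, edgeR adjusted p = 0.571). Without tumor Scrib WT 3 it was 0.087.

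Per kilobase of annotated exon, levels were ordered S100a11, S100a6, S100a10, S100a14, S100a16, S100a1, S100a4 and S100a13. S100a11 averaged 2179 ± 436 CPM per kb in Scrib null and 2053 ± 440 CPM per kb in Scrib WT tumors. S100a6 averaged 1349 ± 234 and S100a10 averaged 313 ± 55.0 CPM per kb in Scrib null tumors, against 2359 ± 1623 for S100a6 and 410 ± 129 for S100a10 in Scrib WT tumors. At the low end S100a13 averaged 42.7 ± 8.04 CPM per kb in Scrib null and 93.6 ± 47.8 CPM per kb in Scrib WT tumors. S100a6 lay above S100a10 in 9 of 9 tumors, and each other member lay above the next in 7 of 9, so those neighbours in the order changed places in a pair of tumors. With the median transcript length in place of the exon union, S100a6 came first and S100a11 second, and S100a4 came above S100a1.

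Transcript length moved with the tumors. The longest annotated transcripts of the members run from 498 to 1683 bases, and 6 of the 8 are under 1 kb. Among 617 tested protein-coding genes under 1 kb the median log2 fold change was -0.65, close to the members' -0.64, and 27.1% were lower in Scrib null at an unadjusted p under 0.05. At 4 kb and over the median was 0.20 and 4.57% were lower. The median log2 deviation of genes under 1 kb from their mean over tumors was 1.10 in tumor Scrib WT 3 and 0.42 in Scrib WT 6, against -0.42 to 0.010 in the 5 Scrib null tumors, and -0.27 in Scrib WT 2 and -0.11 in Scrib WT 9.

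A fit with this trend removed in each tumor was chosen after seeing the data. It gave log2 fold changes of -0.67 for S100a13 (edgeR adjusted p = 0.178), -0.52 for S100a1 (edgeR adjusted p = 0.241), -1.12 for S100a4 and -0.28 for S100a6. S100a10 was at 0.021, S100a16 at -0.033, S100a14 at 0.33 and S100a11 at 0.40. The members' median was -0.15, against -0.014 over all genes. Groups still did not overlap for S100a13. What makes short transcripts more abundant in tumors Scrib WT 3 and Scrib WT 6 was not tested.

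**Figure D4:**
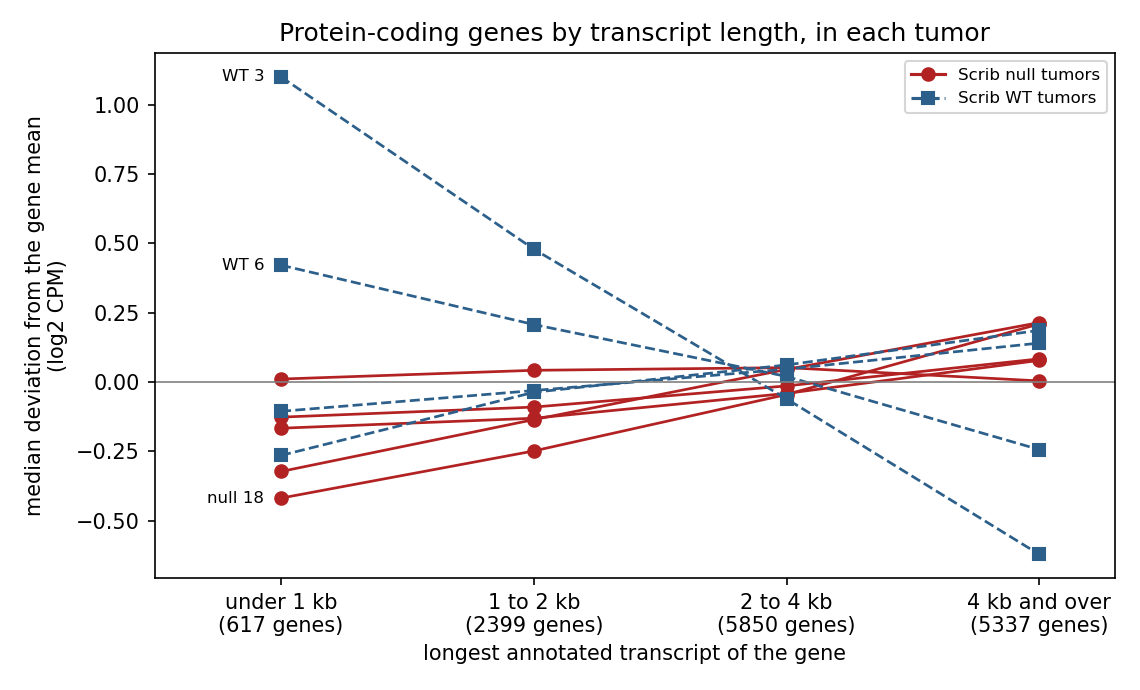
Median deviation from the gene mean in log2 CPM (vertical axis) of protein-coding genes in 4 classes of longest annotated transcript (horizontal axis), 1 line per tumor, solid for Scrib null and dashed for Scrib WT. Tumor Scrib WT 3 runs from 1.10 under 1 kb to -0.62 at 4 kb and over, and the Scrib null tumors stay between -0.42 and 0.21.

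Pearson r between members over the 9 tumors was above 0 for all 28 pairs, with a median of 0.531. It was over 0.7 for 11 pairs, and for 2 with the length trend removed. These values were not computed over all pairs of genes, so they are not shown to be particular to the members. At an adjusted permutation p under 0.05, 9 pairs passed by Pearson r and 2 by Spearman rho, S100a1 with S100a13 and S100a6 with S100a16. For S100a6 and S100a16 r was 0.887 (exact permutation p = 0.00182, adjusted p = 0.017) and rho 0.883 (permutation p = 0.00307, adjusted p = 0.0431). It was 0.766 without Scrib WT tumors 3 and 6 and 0.779 with the length trend removed. For the other pairs that passed by Pearson r, the value fell further without those tumors. S100a6 with S100a10 went from 0.897 to 0.619, and S100a1 with S100a10 from 0.877 to 0.546. It was 0.397 for S100a10 with S100a16, 0.318 for S100a1 with S100a6, 0.213 for S100a13 with S100a16 and 0.164 for S100a10 with S100a13. S100a6 with S100a13 had r = 0.869 (exact permutation p = 0.00716, adjusted p = 0.0334), rho = 0.467 (permutation p = 0.212, adjusted p = 0.331) and r = 0.0579 without Scrib WT 3 and 6. With the length trend removed, r was above 0 for 18 pairs and its median was 0.183, while S100a1 with S100a13 had 0.844.

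**Figure D5:**
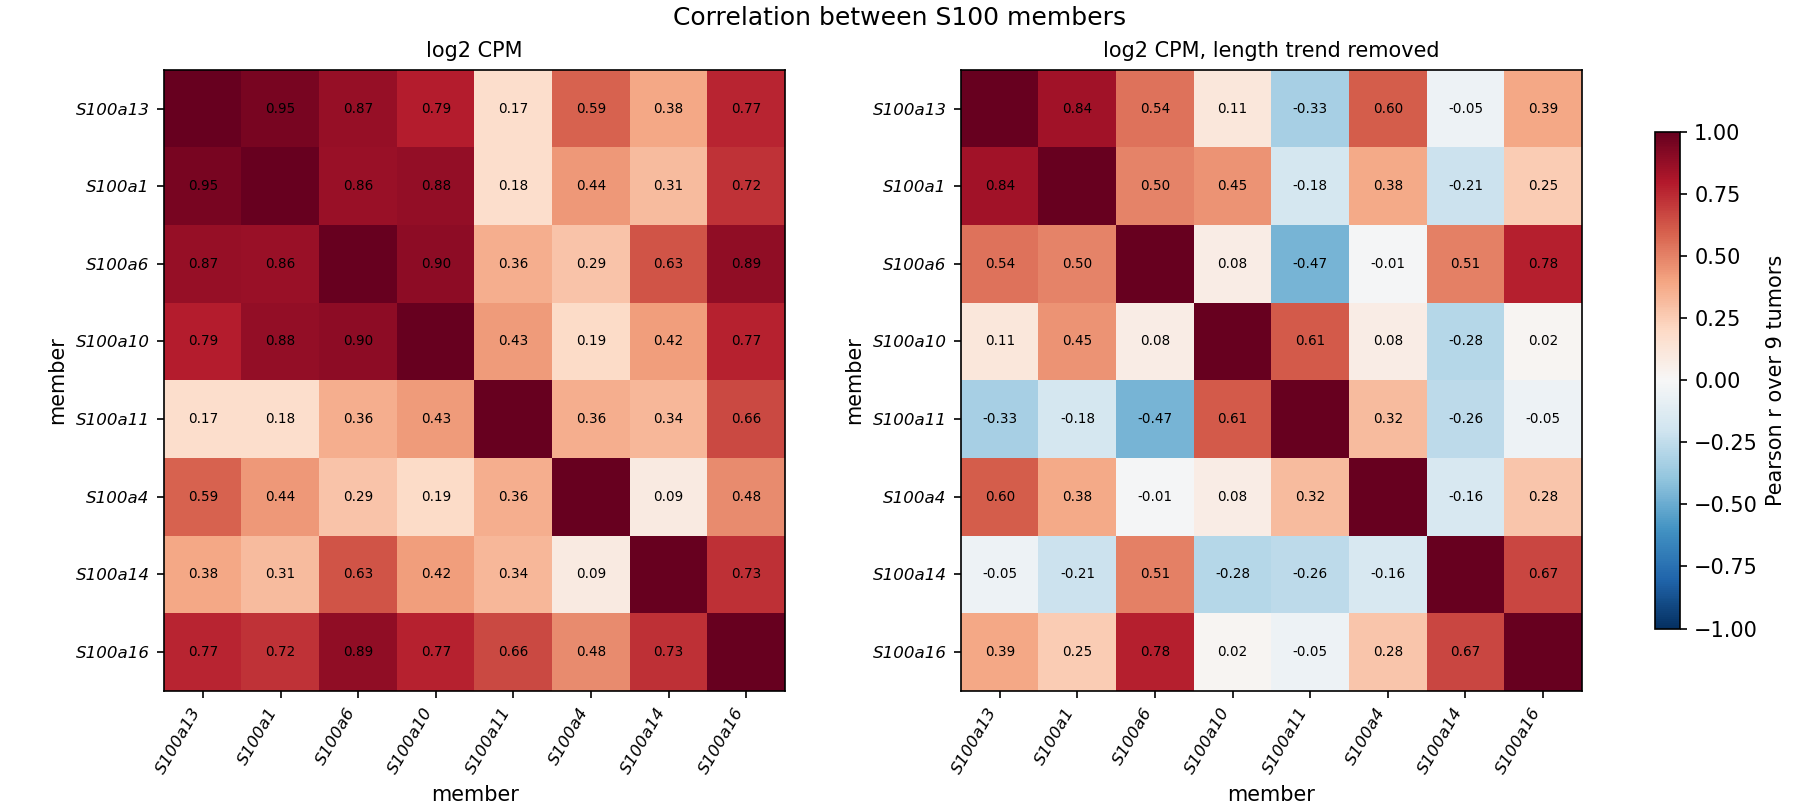
Pearson r over 9 tumors between each pair of members, from log2 CPM (left) and from log2 CPM with the length trend removed (right), with colour and printed value for r. S100a1 with S100a13 is at 0.95 on the left and 0.84 on the right, and S100a6 with S100a10 is at 0.90 and 0.08.

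The genes most like each member were taken as the 3 with the highest Pearson r in log2 CPM over the 9 tumors among 12241 candidates, a description with no test. S100a13 was most like Atox1, a copper chaperone (r = 0.988), Lamtor5, a Ragulator subunit (0.987), and Tmem50a (0.979), and S100a1 was most like Ggact (0.988), Nt5c (0.979) and Alg5 (0.978). For S100a6 they were the ATP synthase subunits Usmg5 (0.994) and Atp5k (0.990) and the elongin Elob (0.990). S100a11 was most like Tmem138 (0.974), Mapkapk5 (0.914) and Tdg-ps (0.910), and S100a10 was most like Serp2 (0.958), Serpinb6a (0.936) and Tpd52l2 (0.934). S100a4 had no gene above 0.918, with Taldo1, Nsdhl (0.913) and Nmi (0.911). Fbxo2 (0.943), Bmt2 (0.920) and the actin-capping gene Capg (0.909) came first for S100a14, and Supt3 (0.980), Brms1 (0.947) and Gng5 (0.943) for S100a16.

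Of 6 other S100 genes tested, 4 had a negative and 2 a positive log2 fold change, against 52.2% negative over all genes, with a median of -1.98. None passed adjustment, and 1 was lower at an unadjusted p under 0.05, as were 10% of all genes. S100a8 and S100a9, whose proteins form calprotectin in neutrophils, ranged most widely over tumors among these genes, by 58.0 times for S100a8 and 67.7 times for S100a9. S100a9 had 29.5, 84.6, 301, 23.9 and 67.8 CPM in Scrib null tumors 7, 14, 15, 18 and 23, against 60.6, 1615, 85.5 and 125 CPM in Scrib WT tumors 2, 3, 6 and 9 (log2 fold change -2.22, edgeR adjusted p = 0.302). S100a8 was highest in the same tumor of each group, with 173 CPM in Scrib null 15 and 769 CPM in Scrib WT 3 (log2 fold change -2.12, edgeR adjusted p = 0.304). Neutrophil markers summed to 50.0 to 349 CPM in Scrib null tumors, highest in tumor 15, and to 97.4 to 692 CPM in Scrib WT tumors, highest in tumor 3. Their part in the S100a8 and S100a9 values was not tested. Without tumor Scrib WT 3 the median of the 6 genes was 0.080.

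S100b, a glial member, had 0.706, 1.42, 2.22, 2.08 and 4.69 CPM in Scrib null tumors 7, 14, 15, 18 and 23, against 19.6, 1.20, 2.42 and 17.3 CPM in Scrib WT tumors 2, 3, 6 and 9 (log2 fold change -2.17, edgeR adjusted p = 0.233). Scrib WT tumors 2 and 9 were high and the other two lay within the Scrib null range. S100b is itself one of the 4 Schwann cell markers, which with it summed to 3.05 to 8.01 CPM in Scrib null and 2.66 to 20.7 CPM in Scrib WT tumors, and Sox10 was at 0 in at least 1 tumor. S100a7a stood at -1.85 on the same scale (edgeR adjusted p = 0.316). Of 7 genes of the fused S100 type, which build the skin barrier, Tchh alone was tested (log2 fold change 0.97, edgeR adjusted p = 0.453), and the others were at most 0.24 CPM in any tumor.

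The annexins, calcium-dependent membrane binders that include the members' main partners, split evenly. Of 12 tested, 6 were negative and 6 positive, against 52.2% negative over all genes, with a median log2 fold change of 0.11. None passed adjustment. At an unadjusted p under 0.05, 2 were lower and 1 higher, against 10% lower and 7.64% higher over all genes. Anxa10, a gastric-type epithelial annexin, averaged 26.8 ± 19.2 CPM in Scrib null and 367 ± 399 CPM in Scrib WT tumors (log2 fold change -3.77, SE 1.01, edgeR adjusted p = 0.201), and Scrib WT 2 at 26.4 CPM lay inside the Scrib null range. Anxa8 averaged 162 ± 70.9 CPM in Scrib null and 290 ± 92.0 CPM in Scrib WT tumors (log2 fold change -0.84, edgeR adjusted p = 0.257). Anxa5, which binds phosphatidylserine, averaged 574 ± 123 CPM in Scrib null and 375 ± 73.3 CPM in Scrib WT tumors (log2 fold change 0.61, edgeR adjusted p = 0.248).

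Of the intracellular partners 8 of 12 had a positive and 4 a negative log2 fold change, against 52.2% negative over all genes. Their median was 0.21, and none passed adjustment. At an unadjusted p under 0.05, 1 was higher and 0 lower, against 7.64% higher and 10% lower over all genes. Ppfibp1, the liprin that binds S100a4, averaged 219 ± 82.9 CPM in Scrib null and 122 ± 30.1 CPM in Scrib WT tumors, with no overlap between groups (log2 fold change 0.84, edgeR adjusted p = 0.227; groups of 3.42% of all genes lay apart in this direction). On the log2 scale Sphk1 stood at -0.60, Trp53 at -0.87 and Sugt1 at -0.54 (edgeR adjusted p = 0.304, 0.32 and 0.341).

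Receptors for extracellular S100 proteins were negative in 4 of 4, against 52.2% of all genes, with a median of -0.71. None passed adjustment, and 1 was lower at an unadjusted p under 0.05, against 10% of all genes. Cd36, a scavenger receptor of macrophages, endothelium and fat, had 3.78, 0.263, 1.88, 0.596 and 3.00 CPM in Scrib null tumors 7, 14, 15, 18 and 23, against 5.25, 11.7, 10.0 and 7.59 CPM in Scrib WT tumors 2, 3, 6 and 9. Groups did not overlap, as for 3.49% of genes in this direction, and the log2 fold change was -2.18 (SE 0.67, edgeR adjusted p = 0.212). Macrophage markers are given above. Endothelial markers summed to 33.3 to 185 CPM in Scrib null and 163 to 373 CPM in Scrib WT tumors, with 5 of 5 negative, 1 at an unadjusted p under 0.05 and 0 after adjustment. The part of either list in the Cd36 difference was not tested. Ager, which encodes RAGE, averaged 2.57 ± 0.89 CPM in Scrib null and 4.77 ± 2.53 CPM in Scrib WT tumors (log2 fold change -0.89, edgeR adjusted p = 0.306). Tlr4 had -0.54 and Bsg -0.23 (edgeR adjusted p = 0.341 and 0.682).

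In the plasminogen system, which S100a10 docks at the cell surface, 5 of 6 genes were tested. Of these 4 were negative and 1 positive, against 52.2% negative over all genes. At an unadjusted p under 0.05 there were 0, against 17.7% of all genes in either direction. Plau, the urokinase, averaged 180 ± 60.3 CPM in Scrib null and 106 ± 58.9 CPM in Scrib WT tumors (log2 fold change 0.77, edgeR adjusted p = 0.306). Plat, the tissue activator, averaged 250 ± 154 CPM in Scrib null and 540 ± 322 CPM in Scrib WT tumors (log2 fold change -1.11, edgeR adjusted p = 0.364).

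Of 22 other protein-coding genes within 250 kb of a member, 10 were tested, 3 negative and 7 positive, against 52.2% negative over all genes, with a median log2 fold change of 0.46. None passed adjustment, and 2 were higher and 0 lower at an unadjusted p under 0.05, against 7.64% higher and 10% lower over all genes. Ints3, an Integrator subunit 77412 bp from S100a1, averaged 83.9 ± 8.35 CPM in Scrib null and 55.2 ± 13.2 CPM in Scrib WT tumors with no overlap, as 3.42% of genes in this direction (log2 fold change 0.60, edgeR adjusted p = 0.224). Gatad2b, a NuRD subunit, averaged 71.2 ± 12.6 CPM in Scrib null and 40.9 ± 18.7 CPM in Scrib WT tumors (log2 fold change 0.80, edgeR adjusted p = 0.235). The members sit in 2 blocks, S100a1 to S100a6 over 90511034 to 90624181 and S100a11 with S100a10 over 93520488 to 93564643, 2.90 Mb apart.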

How the data were processed

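RNA was extracted from whole frozen tumors and sequenced as polyA mRNA, per the labels' protocols. The authors deposited estimated counts per Ensembl gene and tumor, not normalized. Salmon 1.4.0 and DESeq 2 with GRCm38 are named in the submitters' processing notes; the annotation release and strand of the kit are not given in the sources used here. Reads of near-identical copies depend on how they were shared.

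Estimated counts were rounded. Symbols and coordinates came from GENCODE M21 (54131 of 54453 genes matched). Genes were filtered with edgeR's filterByExpr (minimum count 10, total 15), scaled by TMM and tested in edgeR 4.0.16 (R 4.3.3) without covariate, with Benjamini-Hochberg adjustment. CPM is over the TMM-scaled library, and log2 CPM uses a prior count of 2. Exact permutations covered every split of the tumors. DESeq2 1.42.0 and limma-voom 3.58.1, normalizations, filters, covariates and left-out tumors were alternatives. The edgeR script was tested on simulated data with known changes. The length trend (lowess of deviation on transcript length) was removed through offsets.

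The members, the gene lists and the tests were chosen with earlier results of these data known. Genes named are all members, S100a8, S100a9, S100b, Anxa1, Anxa2, Scrib, up to 4 with the smallest p from each list, and the 3 most alike per member; Chtop and Gm42674 were named after their values were seen. Precision was limited by tumor-to-tumor spread (common biological coefficient of variation 0.494).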

Additional observations from a re-analysis of the deposited data

Results flagged for a closer look

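In 28 groups of tumors (14 genes in both genotypes), 9 values lay far from the rest of their group by Dixon's test. The test was run on CPM, not log2 CPM. Chance flags about 1 in 20 groups if values are normally distributed and groups independent. Neither was checked for these CPM values, and S100a8 and S100a9 were flagged in the same tumors. Tumor Scrib null 15 was far above the other Scrib null tumors for S100a1 (98.6 CPM), S100a8 (173 CPM) and S100a9 (301 CPM). Tumor Scrib WT 3 was far above the other Scrib WT tumors for S100a14 (1073 CPM), S100a8 (769 CPM) and S100a9 (1615 CPM). Tumor Scrib null 14 was high for S100a4 at 116 CPM. Tumor Scrib null 7 was high for Scrib at 102 CPM, above every Scrib WT tumor. Tumor Scrib WT 9 was low for S100a11 at 713 CPM.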

How the results depend on the processing

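No paired analysis was possible because the groups share no tumor number. No member was called by edgeR, DESeq2 or limma-voom in any alternative, and S100a13 and S100a1 stayed negative in each. S100a11 turned to -0.019 with upper quartile scaling and -0.093 with identifier range as a covariate. S100a14 turned to 0.040 without a filter, 0.41 with limma-voom, 0.030 with the epithelium and 0.035 with the identifier covariate, 1.16 without Scrib WT 3 and Scrib null 7, and 0.33 with the length trend removed (chosen after seeing the data), which gave 0.021 for S100a10 (0.0084 in log2 CPM). Without both tumors S100a16 was at 0.18, 1 member was lower and 1 higher at an unadjusted p under 0.05, and the median of other S100 genes was -0.083.

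Leaving out each tumor in turn, log2 fold changes ran from -1.28 to -0.68 for S100a13, -1.19 to -0.63 for S100a1, -0.058 to 0.16 for S100a11, -0.33 to 1.05 for S100a14 and -0.70 to 0.087 for S100a16. Members higher at an unadjusted p ran from 0 to 1, the median of other S100 genes from -2.18 to 0.080, and Tchh, the fused S100 gene tested, from 0.67 to 1.66. Differences in mean log2 CPM ran from -1.10 to -0.68 for S100a1, -0.082 to 0.17 for S100a11, -0.094 to 1.03 for S100a14 and -0.64 to 0.051 for S100a16. Leave-one-out runs of these differences, of ranks and of lists were chosen after seeing the data. S100a1 lost its permutation p under 0.05 without any one of Scrib null 7, 14, 18 or 23 or Scrib WT 3 or 6 (exact permutation p up to 0.0893).

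Tumor identifiers begin with 19 (3 Scrib null and 1 Scrib WT tumors), 20 (2 and 2) or 22 (1 Scrib WT), too few in each for a test to pass. Within 19 the differences in log2 CPM were -0.44 for S100a13, -0.42 for S100a1, 0.30 for S100a6, -0.011 for S100a11 and 0.45 for S100a16. S100a14 was at 2.18, S100a4 at -2.13 and S100a10 at -0.072. Within 20 they were -1.66 for S100a13, -1.55 for S100a1, -0.18 for S100a11 and -0.78 for S100a14. S100a6 was at -1.54, S100a16 at -1.44, S100a4 at -1.62 and S100a10 at -0.72. S100a6, S100a14 and S100a16 thus had opposite signs within 19 and within 20. By median transcript length the ranks were 1 for S100a6, 2 for S100a11, 6 for S100a4 and 7 for S100a1, and leaving out tumors moved S100a1 and S100a4 between 6 and 7. The median r over pairs was 0.722 for deviations from group means, 0.375 without Scrib WT 3 and Scrib null 7 and 0.183 with the length trend removed, which gave 0.844 for S100a1 with S100a13. The cause of these changes was not tested.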
